A study of Homo sapiens with 6 samples.

Results

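The genes described here are 44 matrix proteases, their inhibitors and the lysyl oxidases, taken by symbol from a list of 19 matrix metalloproteinases (MMPs), 5 MMP inhibitors, the MMP inducer BSG, 9 ADAM and ADAMTS proteases, the plasminogen activators PLAT and PLAU with the receptor PLAUR, 2 serpins and 5 lysyl oxidases. They are 44 of the 23593 genes named on the array, and all 44 were measured. Where several array features named a gene, the brightest of them on average (mean log2 intensity, all 6 arrays) was used. The question put to them was which are expressed in this metastatic line, and which differ in cells depleted of ASPP2.

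MMPs are zinc proteases that cut collagens, laminins and other matrix proteins. They are made as inactive precursors, and tissue inhibitors of metalloproteinases (TIMPs) bind and block the active enzymes. Plasmin, released from plasminogen by the activators that PLAT and PLAU encode, dissolves fibrin and can activate several MMP precursors. Lysyl oxidases work the other way round, cross-linking collagen and elastin into stiffer fibres, and both kinds of enzyme have been studied as part of the invasion and metastasis of liver cancer.

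HCC-LM3 is an established human hepatocellular carcinoma line. Both groups consisted of these cells in DMEM with 10% serum, 1 week after lentiviral infection. By the labels they differed in the hairpin carried: a control shRNA (shNon) or an shRNA against ASPP2 (shASPP2). Scan dates are not stated in the labels, so batches could not be examined. Each group had 3 samples from separate cultures, every sample on its own 1-colour array. No uninfected cells and no other cell line are among the 6 samples, and the labels do not say how many hairpin sequences were used against ASPP2. Intensities are the authors' RMA values on a linear scale, and errors are SDs over 3 arrays.

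TP53BP2, the gene of ASPP2 (hg18 chromosome 1, 222034412 to 222100255), had intensities of 332, 488 and 452 in shNon and of 228, 216 and 147 in shASPP2. The groups did not overlap, and the log2 fold change was -1.11 (SE 0.249), which is 46.2% of control. This came with a limma adjusted p of 0.204 over all genes, and an exact permutation test gave its smallest possible value, p = 0.1. With trend and robust variance limma's adjusted p was 0.0256, against a range of 0.0256 to 0.585 over the alternatives. A second feature of TP53BP2 gave -1.41, with means of 306 in shNon and 117 in shASPP2, also without overlap.

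Median feature intensity was 111 to 122 on the 6 arrays. The row of random probes, which correspond to no transcript, gives the unspecific signal. It read 32.6 ± 0.752 in shNon and 30.6 ± 0.170 in shASPP2. Every shNon array (31.8 to 33.3) was above every shASPP2 array (30.4 to 30.8) in this row. The level above which a gene was called expressed was 2 times that row (65.1 and 61.2). Of 13 hepatocyte and hepatoma markers, 6 exceeded it: KRT8, KRT18, HNF4A, TF, ALB, at 86.5 in shNon and 68.4 in shASPP2, and AFP in shASPP2 alone. APOA1, APOA2, APOB, TTR, SERPINA1, AHSG and GPC3 did not. The summed intensity of these 13 genes was 18293 to 20024 in shNon and 23902 to 28636 in shASPP2, but the sum is carried by the brightest of them: their median log2 difference was -0.01, with 4 genes higher and 1 lower at an unadjusted limma p under 0.05. Of 12 fibroblast and stellate cell markers 4 exceeded the level (summed intensity 686 to 884 in shNon and 775 to 926 in shASPP2), of 13 leukocyte markers 4 (3201 to 4297 and 4186 to 4752), and of 10 endothelial markers 3 (3012 to 3174 and 2761 to 3276). ACTA2, PTPRC and VWF were among the markers that did not exceed it, and they do not stand for their lists. The endothelial sum is the balance of opposite differences: PECAM1 had means of 1866 and 968 in shNon and shASPP2 (log2 fold change -0.96), and ESAM 866 and 1658 (0.93). LUM, of the fibroblast list, had 183 and 252. The part of these shifts in the results below was not tested. All samples are of the HCC-LM3 line, and fewer cells with a transcript and less of it per cell cannot be told apart in bulk RNA.

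By this measure 29 of the 44 genes were expressed in at least 1 group, or 65.9%, against 63.8% of all 23593 genes. Of the 29, 28 were expressed in both groups and ADAM12 in shASPP2 alone, and 24 exceeded the level on every array. Expressed and unexpressed refer to this level on these arrays, read from the brightest feature of each gene. An unexpressed gene may still be transcribed, and 7 other features of expressed members did not exceed the level. All 5 inhibitors (TIMP1, TIMP2, TIMP3, TIMP4 and RECK), BSG and all 3 plasminogen activation genes were expressed, as were 7 of 9 ADAM and ADAMTS genes (ADAM9, ADAM10, ADAM12, ADAM15, ADAM17, ADAM28 and ADAMTS1) and 3 of 5 lysyl oxidases (LOX, LOXL1 and LOXL2). Among the MMPs 9 of 19 were: the collagenase MMP1, the gelatinase MMP2, the matrilysin MMP7, the stromelysin MMP10, the membrane-anchored MMP14, MMP15 and MMP24, and the secreted MMP19 and MMP28.

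The 15 genes not expressed in either group were MMP3, MMP8, MMP9, MMP11, MMP12, MMP13, MMP16, MMP17, MMP20, MMP25, ADAM8, ADAM19, SERPINB2, LOXL3 and LOXL4. They include MMP9, the gelatinase better known from leukocytes, whose mean was 25.1 ± 8.98 in shNon and 27.0 ± 8.08 in shASPP2, below the random-probe row. Ranked by the group in which each is higher relative to the random-probe row, the genes nearest below the level were MMP3, at 62.7 ± 14.7 and 59.3 ± 15.9, and LOXL3, at 48.6 ± 18.7 and 58.5 ± 5.18. Nearest above it by the same ranking were ADAM12, at 63.3 ± 35.0 and 76.6 ± 5.00, and MMP28, at 90.0 ± 34.5 and 83.6 ± 36.8. Except for ADAM12 in shASPP2, the SD of each of these means was larger than its distance from the level. The 15 unexpressed genes had group means of 25.1 to 62.7 and log2 differences of -0.66 to 0.67, and none had an unadjusted limma p under 0.05.

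**Figure D1:**
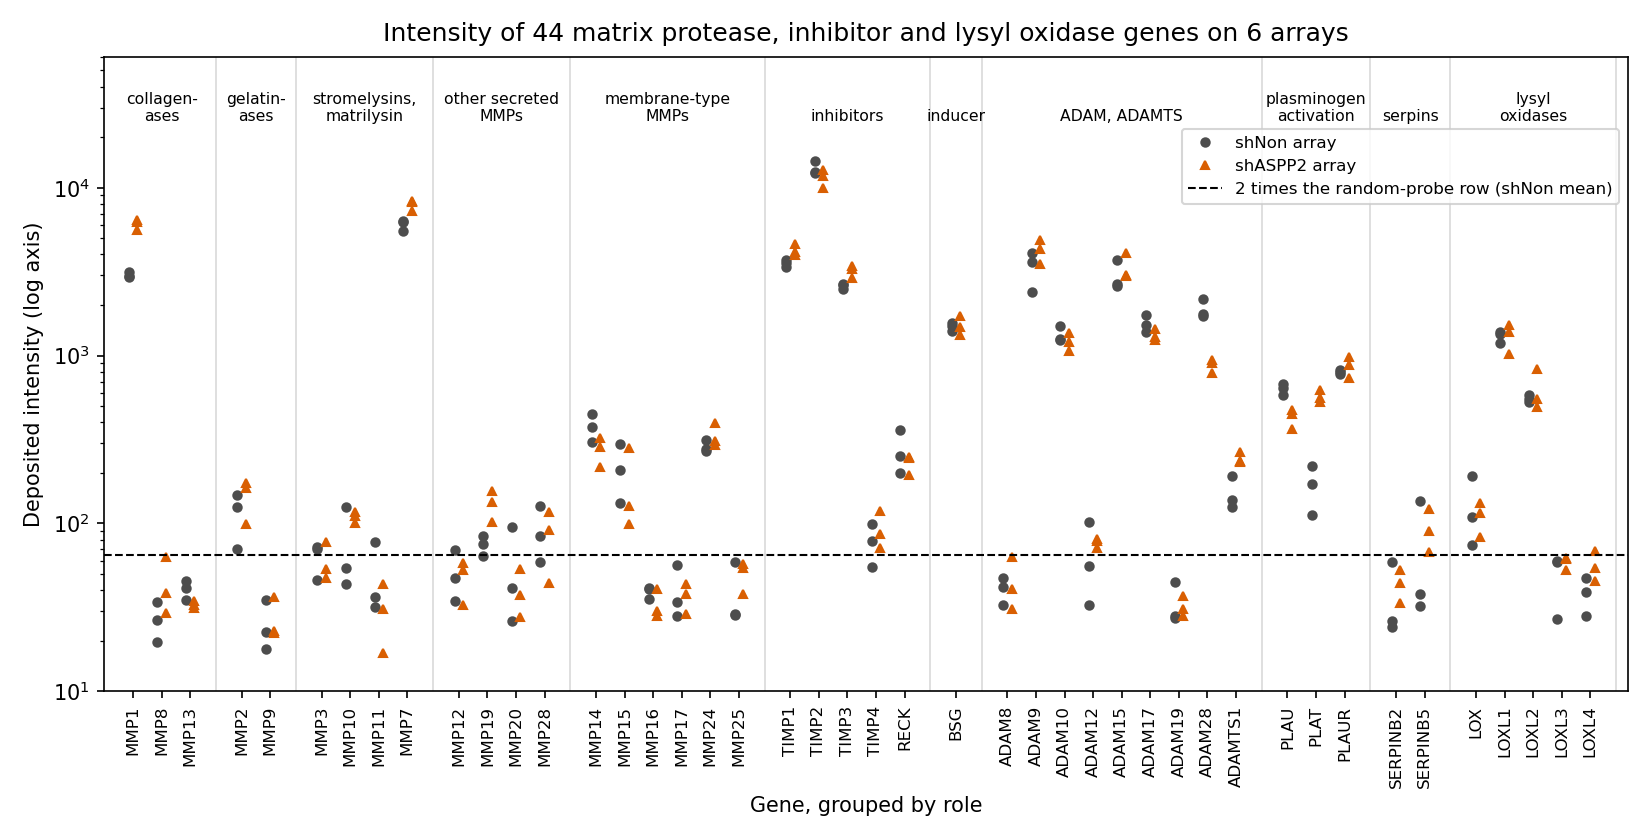
Deposited intensity (log axis) of each of the 44 genes on the 3 shNon arrays (grey circles) and the 3 shASPP2 arrays (orange triangles), grouped by role; the dashed line is 2 times the random-probe row in shNon, at 65.1. All 5 inhibitors lie above the line in their group means, while 10 of the 19 MMPs lie below it.

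No member passed an adjusted p of 0.05 in limma (0 of 44), where 24 of all 23593 genes passed (0.102%; 10, or 0.0424%, higher and 14, or 0.0593%, lower in shASPP2). At an unadjusted p under 0.05 there were 6 members, 4 of them higher in shASPP2 (PLAT, MMP1, MMP19 and ADAMTS1) and 2 lower (ADAM28 and PLAU). That is 13.6% of the members against 11.5% of all genes (5.54% higher and 5.93% lower) and 13.9% of the genes expressed by the same measure, so the share of the members lay near the background. The groups' arrays did not overlap for 10 members (22.7%), against 18.8% of all genes (9.3% higher and 9.52% lower) and 23.7% of expressed genes. Higher in all shASPP2 arrays were PLAT, MMP1, MMP7, MMP19, ADAMTS1, TIMP1 and TIMP3, and lower were ADAM28, PLAU and, at unexpressed levels, MMP13. The median log2 difference of the members was 0.12, against 0.01 over all genes and 0.04 over expressed genes. Their median size irrespective of sign was 0.30, against 0.24 over all genes.

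When limma's variance was allowed to depend on intensity and made robust, 3 members passed an adjusted p of 0.05: PLAT, MMP1 and ADAM28, where 2.14% of all genes passed. The same 3 passed when 32 was added to every intensity (0.526% of all genes passed) and when only genes above the median intensity were tested (2.27% of 11796 genes). MMP1 alone passed when only expressed genes were tested (0.558% of 15063 genes). These 3 genes differed most in size among the 44, and each is described with its class.

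**Figure D2:**
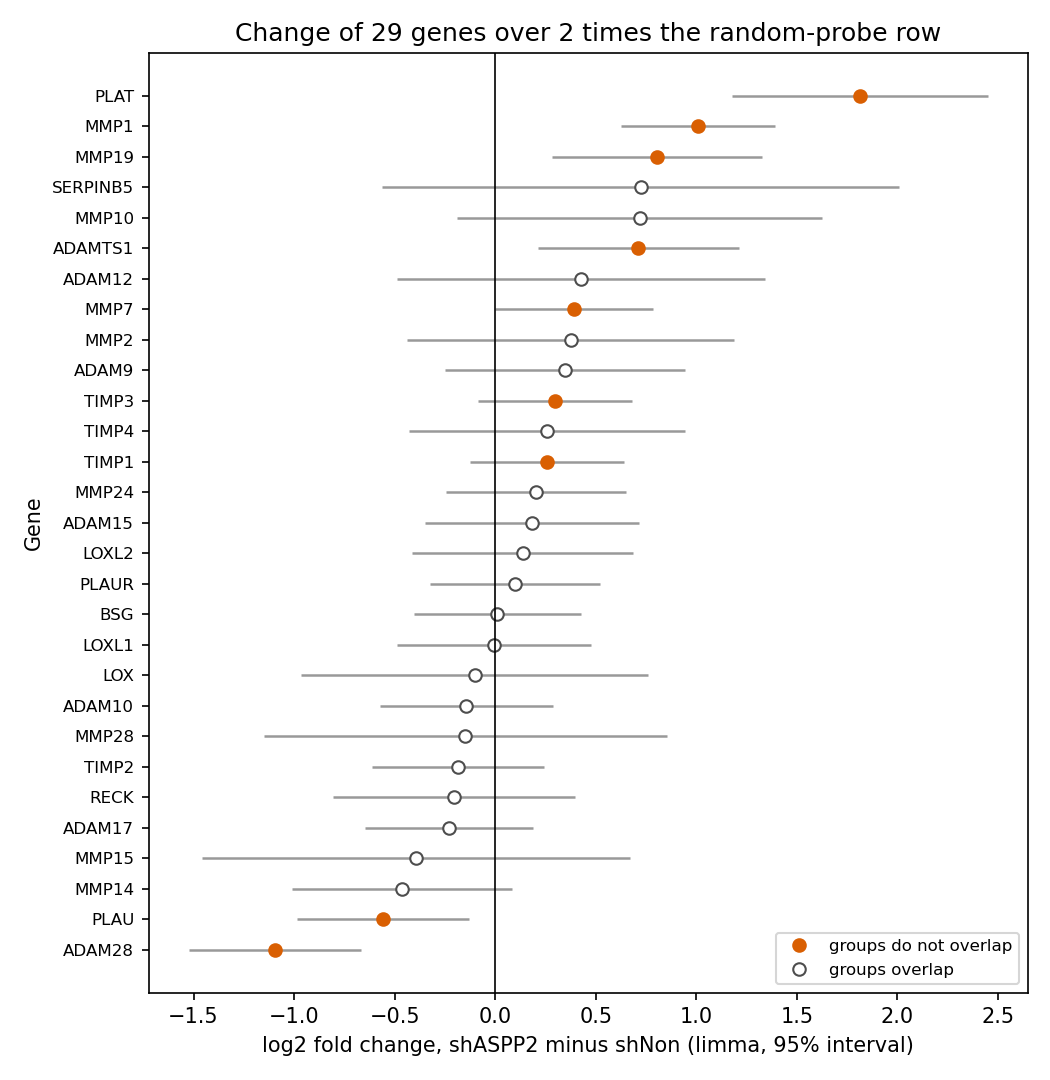
Log2 fold change (shASPP2 minus shNon) with limma's 95% interval for the 29 expressed genes, ordered by size; filled points mark genes whose arrays did not overlap between the groups. PLAT (1.81), MMP1 (1.01) and ADAM28 (-1.10) lie farthest from 0, and 18 of the 29 values are above 0. The median over all 15063 expressed genes was also above 0, at 0.04. Their share above 0 is not given, so the count alone shows no tilt of the members.

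Among the collagenases, which make the first cut in fibrillar collagen, MMP1 (hg18 chromosome 11, 102165860 to 102174104) was the expressed one. Its intensities were 3165, 2979 and 2918 in shNon and 6251, 6430.0 and 5582 in shASPP2. Every shASPP2 array lay well above every shNon array, and the SDs (129 and 447) were small beside the distance between the means, 3021 and 6088. The log2 fold change was 1.01 (SE 0.162, 95% interval 0.63 to 1.39), with a limma p of 4.08e-04 unadjusted and 0.113 adjusted over all genes. With trend and robust variance the adjusted p was 7.95e-05, against a range of 7.95e-05 to 0.488 over 17 alternatives, of which 4 put it under 0.05. The other collagenases, MMP8 and MMP13, were at the random-probe level, with means of 26.7 and 43.7 for MMP8 and 40.5 and 32.8 for MMP13 in shNon and shASPP2.

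MMP7, the matrilysin, a small MMP of epithelial cells without the haemopexin domain of its relatives, was strongly detected in both groups (chromosome 11, 101896448 to 101906688). It read 6234, 6350.2 and 5534 in shNon and 8168, 7244 and 8391 in shASPP2. The arrays did not overlap, but the difference was modest: the log2 fold change was 0.39 (SE 0.167, 95% interval -0.00 to 0.79), with a limma p of 0.0503 unadjusted and 0.436 adjusted. MMP10, stromelysin-2, gave 54.0, 43.5 and 125 in shNon and 101, 117 and 111 in shASPP2, so that 1 shNon array was above all shASPP2 arrays and the other 2 were below the expression level. Its log2 fold change of 0.72 (SE 0.384) had an interval of -0.19 to 1.62. MMP3 and MMP11 were not expressed.

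MMP1, MMP7 and MMP10 lie in the MMP cluster of the long arm of chromosome 11, which spans 435225 bases here (hg18, 101896448 to 102331672) and holds 8 of the members: MMP7, MMP20, MMP8, MMP10, MMP1, MMP3, MMP12 and MMP13, in that order of position. Only these 3 of the 8 were expressed. MMP10 and MMP1 are next to each other, and the unexpressed MMP20 and MMP8 lie between MMP7 and MMP10. The expressed genes had log2 differences of 0.39 (MMP7), 0.72 (MMP10) and 1.01 (MMP1), and the other 5 had values from -0.30 to 0.67 at intensities near the random-probe row. The promoters of 4 of the 8 were among the RefSeq sequences used here (GRCh38.p14, 250 bases before the annotated start, minus strand, written 5′ to 3′ in the direction of transcription). They are shown because MMP promoters of this cluster are textbook examples of a TATA box with an AP-1 site, the element bound by JUN and FOS proteins. Capitals mark TGANTCA (an AP-1 core, where N is any base, which reads the same on both strands) and TATAAA (searched in the direction of transcription only). The windows are chr11:102530748-102530997 for MMP7, chr11:102625333-102625582 for MMP20, chr11:102724955-102725204 for MMP8 and chr11:102780629-102780878 for MMP10.
MMP7: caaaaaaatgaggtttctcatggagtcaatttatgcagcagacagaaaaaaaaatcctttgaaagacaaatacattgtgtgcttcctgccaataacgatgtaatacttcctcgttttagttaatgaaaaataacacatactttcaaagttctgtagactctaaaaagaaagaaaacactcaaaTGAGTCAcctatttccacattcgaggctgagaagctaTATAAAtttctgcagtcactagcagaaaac
MMP20: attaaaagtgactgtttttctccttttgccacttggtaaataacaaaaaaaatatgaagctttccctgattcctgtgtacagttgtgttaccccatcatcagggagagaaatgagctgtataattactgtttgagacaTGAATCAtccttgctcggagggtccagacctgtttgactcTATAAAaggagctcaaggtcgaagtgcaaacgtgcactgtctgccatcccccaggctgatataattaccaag
MMP8: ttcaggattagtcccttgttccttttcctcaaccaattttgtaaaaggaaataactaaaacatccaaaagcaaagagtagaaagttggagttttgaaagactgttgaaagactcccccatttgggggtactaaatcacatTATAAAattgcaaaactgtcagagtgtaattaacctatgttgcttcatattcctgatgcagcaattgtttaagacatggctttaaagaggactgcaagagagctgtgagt
MMP10: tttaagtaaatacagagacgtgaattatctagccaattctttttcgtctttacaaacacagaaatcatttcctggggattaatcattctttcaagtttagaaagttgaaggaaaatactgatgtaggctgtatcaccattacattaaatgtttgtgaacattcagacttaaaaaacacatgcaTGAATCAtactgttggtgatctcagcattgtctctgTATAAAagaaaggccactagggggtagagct
The expressed genes MMP7 and MMP10 both carried an AP-1 core beginning 67 bases before the start, TGAGTCA in MMP7 and TGAATCA in MMP10, and a TATAAA beginning 30 and 31 bases before it. MMP20, which was not expressed, carried TGAATCA at 112 and TATAAA at 72 bases, and MMP8, also not expressed, held TATAAA at 110 bases and no TGANTCA in this window. Over the 27 members with a promoter sequence, TGANTCA was found in 6 (22.2%: MMP7, MMP10, MMP20, PLAUR, SERPINB2 and SERPINB5), against 6.60% of 27305 promoter windows of the same length. TATAAA was found in 5 (18.5%: MMP7, MMP8, MMP10, MMP20 and SERPINB2), against 7.17%. The 2 motifs do not overlap in any window shown. A match is a description of the letters and says nothing of whether a protein binds there in these cells.

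The gelatinases cut denatured and basement-membrane collagen. MMP2 gave 70.0, 147 and 125 in shNon and 99.7, 162 and 174 in shASPP2, with overlapping arrays and a log2 fold change of 0.38 (SE 0.345, 95% interval -0.44 to 1.19). Of the other secreted MMPs, MMP19 (chromosome 12, 54516478 to 54522973) read 83.6, 64.1 and 75.3 in shNon and 102, 134 and 157 in shASPP2. Its groups did not overlap, at means of only 2.28 and 4.28 times the random-probe row. The log2 fold change was 0.80 (SE 0.221, 95% interval 0.28 to 1.33; limma p 0.00811, adjusted 0.272), and a second, unexpressed feature of the gene gave 0.60. MMP28 had a log2 difference of -0.15 that turned positive without some arrays. Its other features, at means of 26.0 and 42.7 in shNon and of 24.6 and 32.8 in shASPP2, were not expressed.

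Membrane-type MMPs work at the cell surface, and MMP14 is the main activator of the MMP2 precursor. MMP14 (chromosome 14, 22375647 to 22386017) read 307, 374 and 449 in shNon and 216, 283 and 321 in shASPP2. The shNon mean was the higher, but the arrays overlapped, and the log2 fold change of -0.46 (SE 0.232) had an interval of -1.01 to 0.08. A second feature gave -0.07. MMP15 and MMP24 had log2 differences of -0.39 and 0.20 with overlapping arrays, and MMP16, MMP17 and MMP25 were not expressed.

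All 5 inhibitors were expressed in both group means, although TIMP4 was below the level on 1 shNon array. TIMP2 (chromosome 17, 74360653 to 74433067), which both inhibits MMP2 and helps MMP14 to activate it, read 14526, 12166 and 12333 in shNon and 9989, 12668 and 11724 in shASPP2, with overlapping groups and a log2 fold change of -0.18 (SE 0.181, 95% interval -0.61 to 0.24). TIMP1, a secreted inhibitor of most MMPs, read 3386, 3548 and 3712 in shNon and 3991, 4646 and 4112 in shASPP2. TIMP3, which is held in the matrix and also inhibits ADAM17, read 2496, 2665 and 2623 in shNon and 2912, 3269 and 3401 in shASPP2. For both TIMP1 and TIMP3 every shASPP2 array was above every shNon array, by small margins: the log2 fold changes were 0.26 (SE 0.163) and 0.30 (SE 0.162), with limma adjusted p of 0.592 and 0.537. TIMP3 had 3 other features, which gave 0.51, 0.47 and 0.02. TIMP4 and RECK, a membrane-anchored inhibitor, had log2 differences of 0.26 and -0.21 with overlapping arrays. BSG, the surface protein that induces MMPs in neighbouring cells, showed no clear direction: it read 1496, 1403 and 1569.6 in shNon and 1711, 1489 and 1322 in shASPP2, a log2 fold change of 0.01 with an interval of -0.41 to 0.43.

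ADAMs shed the outer parts of membrane proteins, growth factor precursors among them. ADAM28 (chromosome 8, 24207564 to 24268660), a lymphocyte and epithelial ADAM found in several carcinomas, read 1709, 1769 and 2164 in shNon and 899, 790.1 and 944 in shASPP2. The shASPP2 arrays were close together and all lay far below the shNon arrays, with means of 1880.3 ± 247 and 878 ± 79.1. The log2 fold change was -1.10 (SE 0.182, 95% interval -1.52 to -0.67), with a limma p of 4.98e-04 unadjusted and 0.121 adjusted. A second feature gave -0.94, also without overlap. With trend and robust variance the adjusted p was 3.98e-04, against a range of 3.98e-04 to 0.488 over 17 alternatives.

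ADAMTS1 (chromosome 21, 27131451 to 27139330), a secreted protease that cuts the proteoglycans aggrecan and versican, read 138, 192 and 126 in shNon and 233, 267 and 235 in shASPP2. The groups did not overlap, and the log2 fold change was 0.71 (SE 0.212, 95% interval 0.21 to 1.21; limma p 0.0117, adjusted 0.302). Its other feature was not expressed and gave -0.22, and the mean of both features gave 0.24. ADAM9, a widely expressed sheddase, read 3600.2, 4104 and 2399 in shNon and 4852, 3509.8 and 4289.8 in shASPP2, with overlap and a log2 fold change of 0.35 (SE 0.254). ADAM10 and ADAM17, the main sheddases of Notch and of TNF, had log2 differences of -0.14 and -0.23, and ADAM12 and ADAM15 of 0.43 and 0.18, all with overlapping arrays.

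The plasminogen activators gave values in opposite directions. PLAT, which encodes tissue plasminogen activator (chromosome 8, 42151911 to 42184351), read 112, 220.3 and 172 in shNon and 529, 624 and 555 in shASPP2. The lowest shASPP2 array was above the highest shNon array, and the means were 168 ± 54.5 and 569 ± 49.3. The log2 fold change was 1.81 (SE 0.269, 95% interval 1.18 to 2.45), with a limma p of 2.52e-04 unadjusted and 0.103 adjusted. A second feature gave 1.70. With trend and robust variance the adjusted p was 4.89e-04, against a range of 4.89e-04 to 0.467 over 17 alternatives.

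PLAU, which encodes urokinase, the activator that acts at the cell surface (chromosome 10, 75340895 to 75347261), read 639.6, 674 and 580.5 in shNon and 366, 451 and 473 in shASPP2. Its groups did not overlap either, with every shASPP2 array the lower: the log2 fold change was -0.56 (SE 0.181, 95% interval -0.99 to -0.13), with a limma p of 0.0173 unadjusted and 0.335 adjusted, and a second feature gave -0.45. The urokinase receptor PLAUR read 824, 773 and 802 in shNon and 883, 976 and 731 in shASPP2, with overlap and a log2 fold change of 0.10 (SE 0.179, 95% interval -0.32 to 0.52). The difference between the log2 intensities of PLAT and PLAU was -1.96 ± 0.487 in shNon and 0.41 ± 0.159 in shASPP2. The pair was chosen after its values were seen, so this is given without a test, and it does not rank the transcripts.

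**Figure D3:**
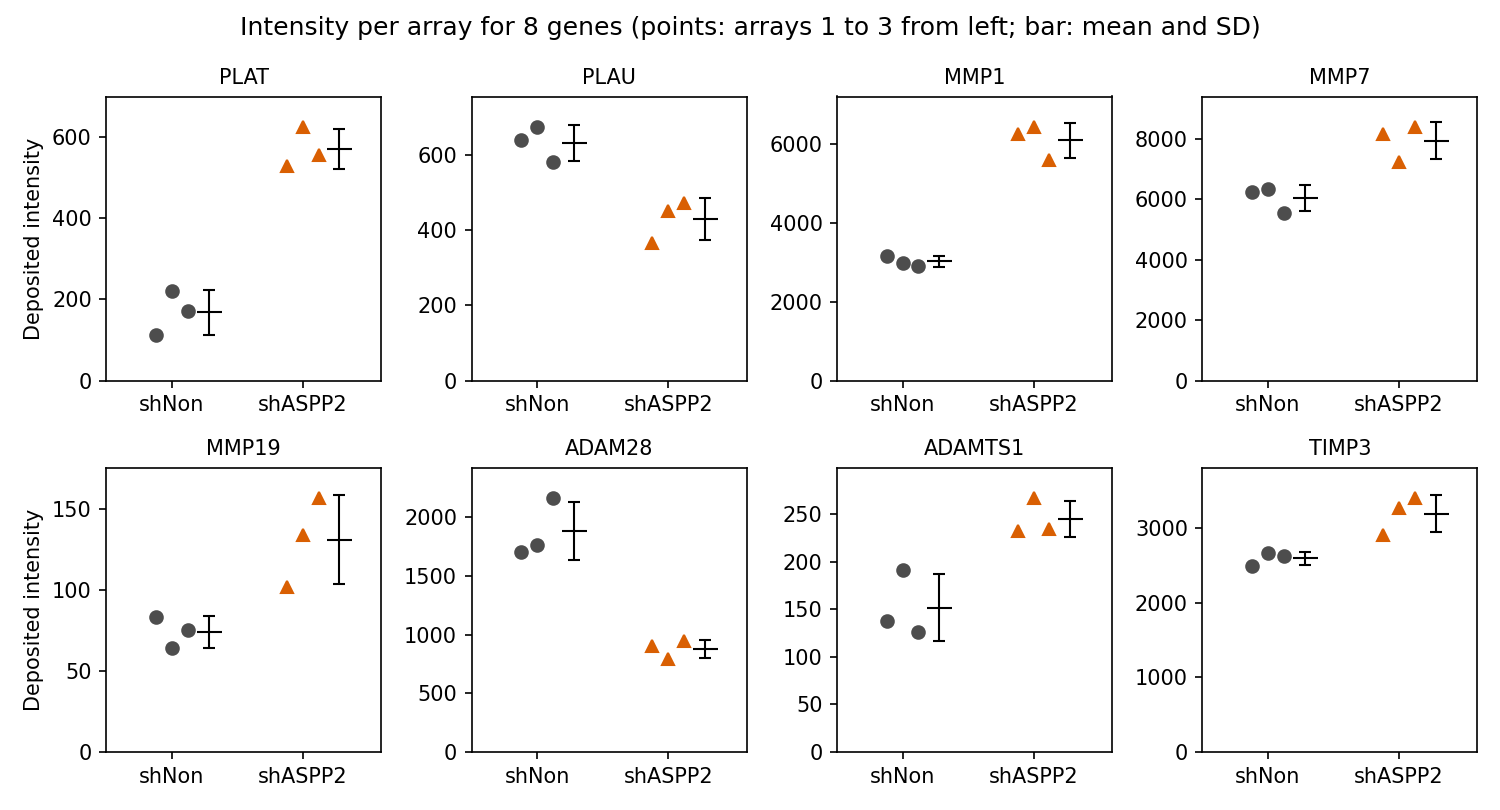
Deposited intensity on each array (points, 3 per group) with group mean and SD for 8 genes; every vertical axis starts at 0 and has its own scale. The 8 genes were picked from the 10 members whose groups did not overlap (22.7%, against 18.8% of all genes and 23.7% of expressed genes). PLAU and ADAM28 are lower in shASPP2, and the other 6 are higher, from 1.23-fold for TIMP3 to 3.52-fold for PLAT.

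Of the serpins, SERPINB2, an inhibitor of the plasminogen activators, was not expressed, and SERPINB5 (maspin) was expressed barely and unevenly, at 135, 37.7 and 32.2 in shNon and 67.7, 90.2 and 121 in shASPP2. Its log2 difference of 0.72 had an interval of -0.56 to 2.01, which covers no change as well as a large one. The other feature of SERPINB5 was not expressed, at means of 40.5 in shNon and 41.3 in shASPP2, and gave -0.02. Among the lysyl oxidases LOXL1 (chromosome 15, 72005841 to 72031531), which cross-links elastin, read 1184, 1337 and 1374 in shNon and 1026, 1515 and 1386 in shASPP2. The log2 fold change was -0.00 with an interval of -0.49 to 0.48. LOXL2, whose product acts on basement-membrane collagen, read 580.0, 554 and 527 in shNon and 553, 833 and 490.4 in shASPP2. All but 1 of the LOXL2 values lay between 490.4 and 580.0, and the log2 fold change was 0.14 (SE 0.233, 95% interval -0.41 to 0.69). LOX read 109, 74.5 and 191 in shNon and 116, 132 and 82.5 in shASPP2, a log2 fold change of -0.10 with an interval of -0.96 to 0.76. For the 3 expressed lysyl oxidases the arrays thus overlapped throughout, and their intervals leave room for differences in either direction.

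Several members had more than 1 feature, which gives a check that does not rest on the feature chosen. For 22 other features of 17 members both features were above the expression level, and 19 of the 22 had the same sign as the feature used. The matching share over all genes is not given here, so the count describes the features only. The exceptions were ADAM17, with -0.23 in the feature used and 0.16 in the other, and both other features of TIMP2, with 0.10 and 0.09 against -0.18. In size, the other feature of MMP2 gave 0.90 against 0.38, that of MMP14 -0.07 against -0.46, that of LOXL2 0.40 against 0.14, that of ADAM9 0.10 against 0.35 and that of LOX -0.28 against -0.10.

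**Figure D4:**
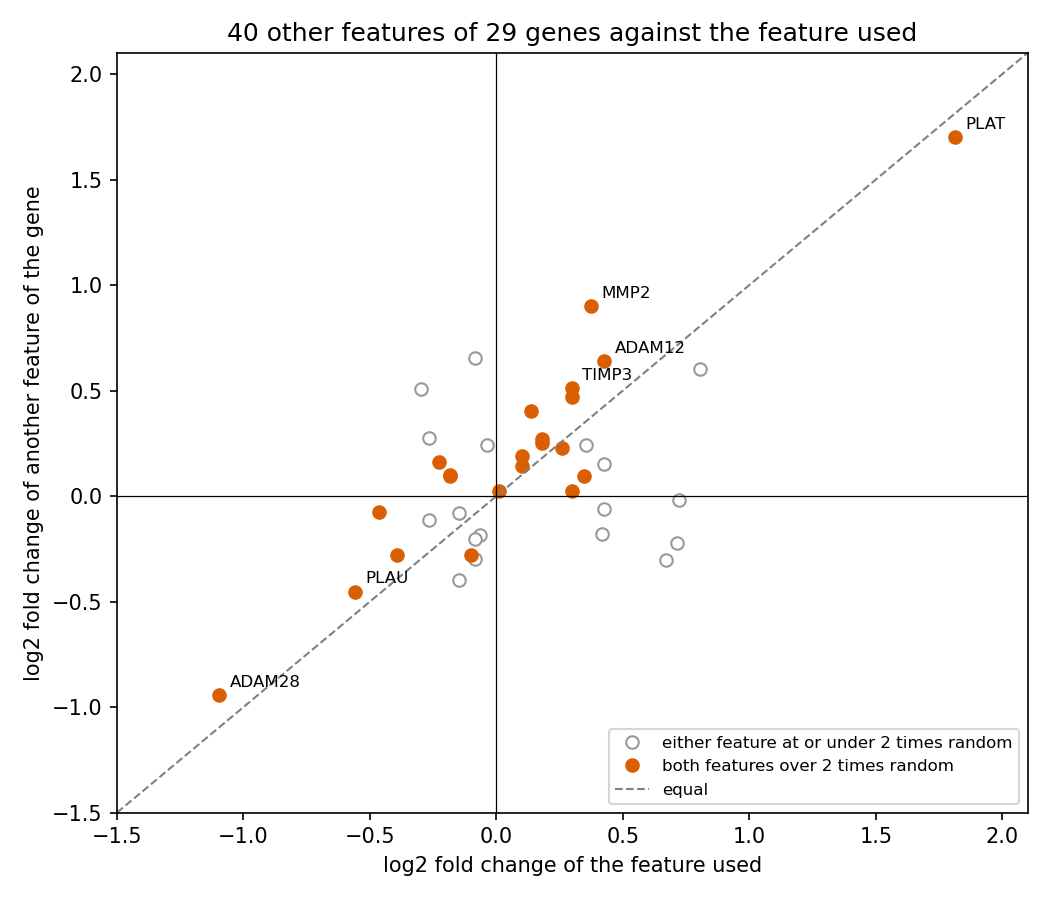
Log2 fold change of each of the 40 other features of 29 members (vertical axis) against that of the feature used for the gene (horizontal axis); filled points have both features above 2 times the random-probe row, and the dashed line marks equal values. The filled points of PLAT (1.81 and 1.70), ADAM28 (-1.10 and -0.94) and PLAU (-0.56 and -0.45) lie near the line.

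Genes that act around these enzymes were read from 6 further lists, and no gene of any of them passed an adjusted p of 0.05 in limma. With trend and robust variance 4 of their 86 genes passed (4.65%, against 2.14% of all genes): SERPINE2, SERPINH1 and PLOD2, higher in shASPP2, and CTSK, lower. At an unadjusted limma p under 0.05 there were 11 of the 86 (12.8%), near the 11.5% of all genes and 13.9% of expressed genes. The 2 genes of smallest p in each list are named below. The plasmin system outside the activators (12 genes, 9 expressed, median log2 difference 0.19) included 3 genes with an unadjusted limma p under 0.05, 2 of them higher in shASPP2 and 1 lower. SERPINE2, protease nexin-1, an inhibitor of thrombin and of both plasminogen activators, read 5562, 5095 and 4593 in shNon and 11751, 10718 and 10950.3 in shASPP2. Its log2 fold change of 1.14 (SE 0.167; limma adjusted p 0.103) is in the same direction as that of PLAT, and its groups were far apart. SERPINF2, alpha-2-antiplasmin, had a log2 difference of 0.80 (adjusted p 0.394) from an unexpressed level in shNon.

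Among the cathepsins, cystatins and heparanase (15 genes, 13 expressed, median -0.19) 2 genes were lower and none was higher at an unadjusted limma p under 0.05. CTSK, the collagen-degrading cathepsin of osteoclasts, read 651, 579.5 and 717 in shNon and 284, 365 and 305 in shASPP2, without overlap. Its log2 fold change was -1.03 (SE 0.185; limma adjusted p 0.138). CSTA, an inhibitor of cysteine proteases, had -0.86 (SE 0.176; adjusted p 0.187). Collagen maturation enzymes (14 genes, 11 expressed, median 0.00) had 3 genes higher and none lower by the same measure. The collagen chaperone SERPINH1 had means of 4577 ± 843 and 8113 ± 1091 in shNon and shASPP2, a log2 fold change of 0.83 (SE 0.208; limma adjusted p 0.238). The lysyl hydroxylase PLOD2, which prepares collagen for cross-linking, had 1787 ± 51.1 and 2840 ± 485, a log2 fold change of 0.65 (SE 0.189; limma adjusted p 0.287).

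The other 3 lists held little. Further MMPs and their activators and clearance factors (9 genes, 4 expressed, median -0.25) and matrix substrates (14 genes, 11 expressed, median 0.15) had no gene at an unadjusted limma p under 0.05. The convertase PCSK5, which processes precursor proteins, had a log2 difference of 0.43, and the unexpressed MMP27 had -0.47. Of the substrates, FN1 (fibronectin) was lower in every shASPP2 array, with a log2 difference of -0.32 (SE 0.161; limma adjusted p 0.505), and COL1A2 was unexpressed, with 0.49. Further ADAM and ADAMTS proteases (22 genes, 7 expressed, median 0.01) had 1 higher and 2 lower. ADAMTS20 read 174, 175 and 257 in shNon and 116, 116 and 79.6 in shASPP2, a log2 fold change of -0.95 (SE 0.249; limma adjusted p 0.252), and ADAMTS12 had 0.66 (SE 0.227; adjusted p 0.358).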

How the data were processed

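Total RNA of 6 cultures was hybridised in 1 colour (Cy3) to NimbleGen expression arrays. The authors deposited 1 linear intensity per feature and array, produced by RMA according to the submitters' processing notes. That method usually subtracts background, aligns the arrays' distributions and combines a feature's probes, which compresses fold changes of dim genes. Its settings are not stated in the labels. The 45033 features carry hg18 positions per the file headers, and 45031 were summarised from 3 probes. Symbols were updated through a RefSeq table of GRCh38.p14, used for names and promoters only. All 44 members kept the same feature after renaming, and 27 had a promoter sequence.

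Log2 of the deposited intensity was fitted with limma 3.58.1 (lmFit, eBayes; R 4.3.3) on group alone. Two-sided p-values were adjusted by the Benjamini-Hochberg method over 23593 genes, and 0.05 was the threshold. Errors of log2 fold changes are moderated SEs. Exact permutation tests cannot go below p = 0.1 with 3 arrays a group, and the number of arrays limits the precision. The fit was also run on simulated arrays with known differences and with noise drawn alike for bright and dim genes. That run checks the estimated differences and cannot show which variance model suits these data.

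The members, context lists, marker lists and rule for named genes were chosen with earlier results of these data known. The rule gives array values for expressed members with an unadjusted p under 0.05, a log2 fold change of at least 1 in size, or the brightest feature of their class, and the 2 genes of smallest p in each context list. Array values of MMP10, TIMP1, TIMP3, LOX and LOXL2 were added to show spread. Alternatives were the value table, 2 scalings, 2 filters, trend with robust variance, array weights, a replicate block, the mean of features, an added 32, feature-level adjustment and leaving out each array.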

Additional observations from a re-analysis of the deposited data

How the results depend on the processing

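The number of genes past the threshold over the whole array depended on the variance model and on how many dim genes were tested. Against 24 genes in the reported fit, 84 passed with only genes over 2 times the random-probe row, 268 with only genes above the median level, 506 with trend and robust variance, 124 with 32 added to the intensity, 40 with the mean of all features of a gene and 62 at feature level. Without 1 array at a time the number was 0 to 6. Of the members, 0 passed as reported, 1 (MMP1) with only genes over 2 times the random-probe row, and 3 each with the median filter, trend and robust variance, and 32 added. TP53BP2 kept -1.11 with trend and robust variance and then passed.

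The replicate numbers did not pair the cultures: same-numbered arrays correlated at 0.08, -0.10 and -0.14, and not every array correlated best with its own number. With the replicate number as a block 0 genes and 0 members passed.

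Over the 29 expressed members and 12 context genes, 649 values kept direction and side of the threshold, 20 newly passed it and 16 turned sign. Part of the 649 was fixed beforehand. The value table held the same intensities and could change nothing, and feature-level adjustment keeps the log2 fold changes and could turn no sign. The sign turned for TIMP2 with the mean of features (0.0022), for BSG with median centring (-0.032) and array weights (-0.00070), and with array weights for LOX (0.0014) and LOXL1 (0.026). Leaving out 1 array gave -0.44 to 0.26 for MMP28, -0.40 to 0.021 for RECK, -0.085 to 0.10 for BSG, -0.42 to 0.26 for LOX, -0.12 to 0.16 for LOXL1 and -0.088 to 0.29 for LOXL2. The number of expressed members depended on the level chosen: it was 26 to 35 under other thresholds, not listed here, and the mean of features.

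For members near the random-probe row, such as MMP28, ADAM12 and SERPINB5, the signal over background limits what can be read.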

Other observations

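The neighbours of the chromosome 11 MMP cluster, read after the cluster's values were seen, include BIRC3, an inhibitor of apoptosis induced by NF-kB (hg18 chromosome 11, 101693403 to 101713675). It had means of 2305 ± 646 in shNon and 1062 ± 47.1 in shASPP2 without overlap, a log2 fold change of -1.08 (SE 0.227; limma p 0.00193, adjusted 0.191 over all genes). Its direction is opposite to that of MMP1 and MMP7. The adjacent BIRC2 had a log2 difference of 0.01 (SE 0.167), TMEM123 of -0.11 (SE 0.202) and YAP1 of -0.22 (SE 0.217), all with overlapping arrays. On the other side of the cluster DCUN1D5 had 0.15 (SE 0.161), with every shASPP2 array the higher. Inside the cluster, between MMP20 and MMP8, the locus LOC643590 had means of 108 ± 50.8 in shNon, 3.33 times the random-probe row, and 48.5 ± 13.1 in shASPP2, without overlap. Its log2 fold change was -1.10 (SE 0.355; limma p 0.0173, adjusted 0.335).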
